A study of Mus musculus with 2 samples.

Results

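Among the sorted CD11b+ liver cells of 4 mice, 706 of 15384 cells formed a group of Ccr2-expressing monocytes with counts of Il1b, Nr4a and other activation genes. They were the cells of the CDA-HFD-fed mice alone, 365 from an Egr2fl/fl mouse and 341 from a Lyz2Cre/+.Egr2fl/fl mouse. The cells were chosen by measured values: at most 25% mitochondrial counts, a Ccr2 count of 3 or more, and a count of at least 3 of the 6 genes Il1b, Thbs1, Nr4a2, Nr4a3, Fosb and Crem. Cells with any Cd209a count (a dendritic cell gene) or Cd5l count (a Kupffer cell gene) were left out. So were cells with a count of more than 1 gene from any of 4 short lists, which stood for Vcan-type classical monocytes (Vcan, Serpinb10, Tppp3, Chil3 and F13a1), patrolling monocytes (Spn, Ace, Cd300e, Eno3 and S1pr5), lipid-associated macrophages (Mmp12, F7, Gpnmb and Spp1) and Tmem119, Olfml3 and Pf4 macrophages. Cells that passed all conditions other than the 6 genes are called gated cells, the 706 cells members, and the 772 gated cells of the same mice with 0 or 1 of the 6 genes reference cells. Since the rule used counts of these same cells, members and reference cells are set side by side as a description, with no test.

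Circulating monocytes enter tissue through the chemokine receptor CCR2, and in the liver they lose monocyte genes and gain macrophage genes as they mature. Within minutes of a stimulus, cells transcribe immediate early genes such as the FOS, JUN, EGR and NR4A transcription factors without new protein synthesis. CREB, activated through cyclic AMP or calcium, drives several of them, the NR4A family among them, while NF-kB drives Il1b, which encodes the precursor of interleukin-1 beta. Tissue digestion is also known to induce immediate early genes.

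The study asked how loss of Egr2 in myeloid cells alters monocyte-derived macrophages in a diet-induced steatotic liver. The 4 mice were an Egr2fl/fl mouse and a Lyz2Cre/+.Egr2fl/fl mouse fed normal diet (ND), and another pair of these genotypes fed CDA-HFD for 7 weeks. CDA-HFD is a high-fat diet that lacks choline and has amino acids in place of protein. The methods describe male mice, 6 to 12 weeks old when put on this diet, and the ages of the sequenced mice were not given. All 4 mice carried Egr2 alleles flanked by loxP sites. In Lyz2Cre/+.Egr2fl/fl mice, Cre is expressed from 1 of the Lyz2 loci, so that Egr2 is deleted in myeloid cells that express Lyz2. Sorted cells were CD45.2+, CD11b+ and negative for CD90.2, B220, NK1.1 and SiglecF, and each mouse had its own hashtag, a DNA barcode bound through CD45.2. The livers were digested with warm collagenase before the sort, and no undigested sample was analysed here. Expression present in the liver and expression induced during isolation therefore cannot be told apart. Each group was 1 mouse, so that the spread between animals is unknown and no test could be made. Intervals are 95% and cover counting error only, and expression is given as counts per 1000000 counts (CPM) summed over the cells of a group.

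The data held 1723 and 1590 cells of the ND-fed mice and 5885 and 6186 of those fed CDA-HFD, with medians of 13168 to 16459 counts per cell. The 1392 barcodes that the authors had called doublets by hashtag were not used, but 2 cells of 1 mouse captured together cannot be seen by hashtag and may still be present. Members had a median of 14946 counts and 2489 genes in the Egr2fl/fl mouse and 14293 counts and 2418 genes in the Lyz2Cre/+.Egr2fl/fl mouse. Reference cells had 13013 and 12956 counts. The members' mitochondrial share was a median of 2.14% and 2.16%, against 2.32% and 2.25% in reference cells. Egr2, the targeted gene, was at 79.3 CPM in members of the Egr2fl/fl mouse and 30.9 CPM in those of the Lyz2Cre/+.Egr2fl/fl mouse. These counts come from transcript ends and may include transcripts of the deleted allele.

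The members were frequent in both CDA-HFD-fed mice and rare on ND. They made up 6.20% of the cells of the CDA-HFD-fed Egr2fl/fl mouse (5.60 to 6.85%) and 5.51% of those of the CDA-HFD-fed Lyz2Cre/+.Egr2fl/fl mouse (4.96 to 6.11%). On ND, 12 of 1723 cells of the Egr2fl/fl mouse met the same conditions, or 0.696% (0.360 to 1.21%), and 2 of 1590 cells of the Lyz2Cre/+.Egr2fl/fl mouse, or 0.126% (0.0152 to 0.454%). The gate alone did not separate the diets to this extent. Gated cells were 11.3% and 4.21% of all cells on ND, and 15.5% and 17.8% on CDA-HFD. Among gated cells, the share with at least 3 of the 6 genes was 6.19% on ND and 40.0% on CDA-HFD in Egr2fl/fl mice, a difference of 33.8 points (28.4 to 38.2). In Lyz2Cre/+.Egr2fl/fl mice it was 2.99% of 67 gated cells and 31% of 1100, a difference of 28.0 points (20.1 to 31.9). The diets also differed in mouse, so diet and animal cannot be told apart.

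The 6 genes did not contribute equally to this contrast. Il1b was already detected in 79.9% of gated cells of the ND-fed Egr2fl/fl mouse and in 83.8% on CDA-HFD, a difference of 3.89 points whose interval (−2.08 to 10.6) included 0. Fosb, an AP-1 subunit, was detected in 22.2% of gated cells of the ND-fed and in 54.0% of those of the CDA-HFD-fed Egr2fl/fl mouse, a difference of 31.8 points (24.5 to 38.3). Thbs1, which encodes the matrix glycoprotein thrombospondin-1, went from 8.25% to 29.4%, and Nr4a2, an orphan nuclear receptor of the NR4A family, from 5.67% to 25.5%. Nr4a3 differed by 14.3 points (10.3 to 17.2) and Crem by 10.6 (5.80 to 14.4). In Lyz2Cre/+.Egr2fl/fl mice the differences were 2.70 points for Il1b (−7.20 to 14.9), 17.2 for Fosb (4.50 to 28.0), 20.3 for Thbs1 (11.3 to 25.4), 16.1 for Nr4a2 (7.17 to 21.1), 7.74 for Nr4a3 (0.148 to 11.03) and 5.45 for Crem (−3.86 to 10.9). The interval thus included 0 for Il1b in both genotypes, and for Crem in Lyz2Cre/+.Egr2fl/fl mice alone.

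The comparison of genotypes on CDA-HFD depended on what the members were counted against. Of all cells, the Lyz2Cre/+.Egr2fl/fl mouse differed by −0.690 points, with an interval of −1.54 to 0.159. Of gated cells, it differed by −8.98 points (−13.2 to −4.71), while gated cells themselves were 2.27 points more frequent (0.927 to 3.61). Detection in gated cells was lower in the Lyz2Cre/+.Egr2fl/fl mouse, with differences of −8.45 points for Fosb (−12.9 to −4.00), −5.59 for Nr4a3 (−8.70 to −2.53), −4.97 for Il1b (−8.42 to −1.48) and −3.41 for Crem (−6.61 to −0.249). The intervals for Thbs1 (−7.09 to 0.914) and Nr4a2 (−7.25 to 0.371) included 0. Among the other settings tried on the share of all cells, the interval excluded 0 in 2 and included it in the rest. Without Thbs1 in the rule the difference was −0.830 points (−1.57 to −0.0912). A setting chosen after seeing the data took cells with 3 or more markers of another cell type out of members and all cells alike. There the difference was −1.11 points (−2.17 to −0.0576). Dendritic cell and non-classical monocyte genes were not counted as such markers.

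**Figure D1:**
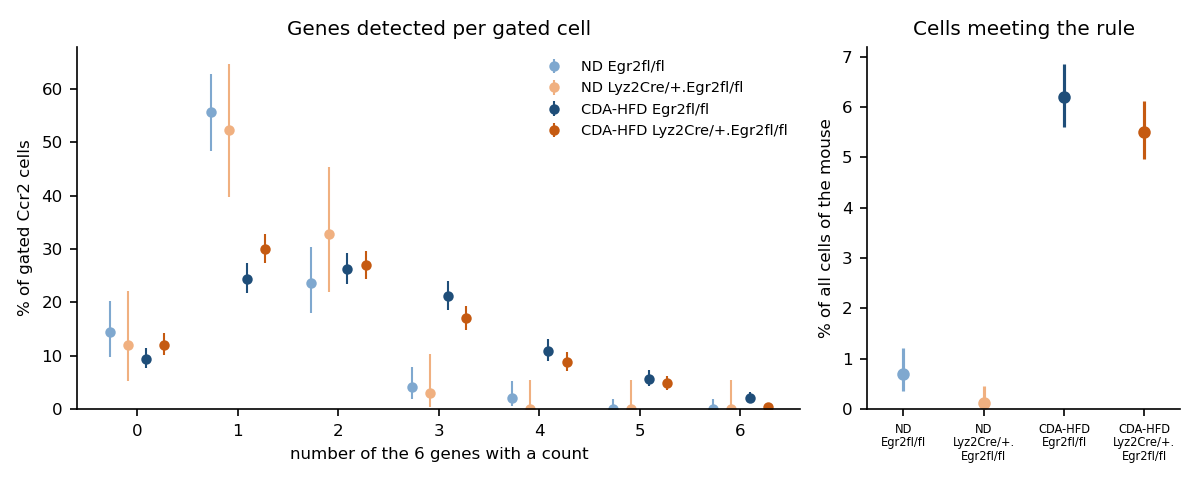
Left, percent of gated Ccr2 cells (y axis) with 0 to 6 of the genes Il1b, Thbs1, Nr4a2, Nr4a3, Fosb and Crem (x axis) in the 4 mice. Right, percent of all cells of each mouse that met the rule, with 95% exact intervals. The ND-fed mice peaked at 1 gene, with 55.7% and 52.2% of gated cells, as did the CDA-HFD-fed Lyz2Cre/+.Egr2fl/fl mouse, with 30%, and the CDA-HFD-fed Egr2fl/fl mouse peaked at 2, with 26.2%. Cells with 3 or more genes numbered 12 and 2 on ND and 365 and 341 on CDA-HFD.

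Free RNA in the cell suspension can set a floor for detection, but it was not measured directly. T, NK and B cells were taken as a guide to it. Counts from myeloid cells captured together with them could not be told apart from free RNA. In 47 cells with 3 or more T or NK cell markers and no count of Csf1r or Lyz2, at a median of 6213 counts, Il1b was detected in 36.2% at 858 CPM and Thbs1 in 8.51% at 11.6 CPM. In 16 cells chosen likewise by B cell markers, at a median of 7241 counts, Il1b was detected in 4 at 912 CPM and Thbs1 in 1 at 72.0 CPM. Reference cells had Il1b in 56.9% at 668 CPM and Thbs1 in 2.72% at 4.70 CPM, at a median of 12968 counts. In CPM, Il1b and Thbs1 of reference cells were therefore not above the level of these T, NK and B cells. Members had Il1b in 98.4% at 3877 CPM and Thbs1 in 59.2% at 360 CPM. T and NK cells express Nr4a2, Nr4a3, Fosb, Crem and Ccr2 themselves and give no floor for these. In the 16 B cells, which can express early genes too, Fosb was detected in 5 at 112 CPM, Crem in 4 at 79.97 CPM, Nr4a2 in 1 at 32.0 CPM and Nr4a3 in 2 at 16.0 CPM. Members of both mice together had 459, 70.9, 160 and 73.7 CPM of these genes, so that Crem was not above the B cells.

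Most members combined Il1b with Fosb. In the Egr2fl/fl mouse, 98.4% of members had Il1b, 87.9% Fosb, 57.3% Nr4a2, 56.4% Thbs1, 36.4% Nr4a3 and 35.1% Crem. In the Lyz2Cre/+.Egr2fl/fl mouse the shares were 98.5%, 85.0%, 54.5%, 62.2%, 29.3% and 33.4% in the same order. The most frequent combination was Il1b with Thbs1 and Fosb alone, in 64 cells (17.5%) of the Egr2fl/fl mouse and 70 cells (20.5%) of the Lyz2Cre/+.Egr2fl/fl mouse. Il1b with Nr4a2 and Fosb alone followed in 49 (13.4%) and 42 cells (12.3%). All 6 genes were found together in 19 (5.21%) and 4 cells (1.17%). In all, 194 and 187 members had exactly 3 of the genes.

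The levels of the genes that chose the members are given as a description. Il1b was at 3693 and 4075 CPM in members of the Egr2fl/fl and the Lyz2Cre/+.Egr2fl/fl mouse, and at 773 and 600 CPM in reference cells. Thbs1 was at 368 and 352 CPM against 3.09 and 5.76 CPM. Nr4a2 was at 169 and 151 CPM against 1.90 and 2.18 CPM. These 3 levels were far apart between members and reference cells, which were both chosen on these genes. Crem, which encodes a CREB-family modulator that includes the repressor ICER, was at 81.1 CPM in the Egr2fl/fl and 59.9 CPM in the Lyz2Cre/+.Egr2fl/fl members, a ratio of 0.739 (0.640 to 0.854). Nr4a3 was at 84.9 and 61.6 CPM, a ratio of 0.726 (0.630 to 0.836). Ccr2 was somewhat lower in members than in reference cells, at 751 against 951.7 CPM and 791 against 1046 CPM.

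Just outside the threshold, gated cells with exactly 2 of the genes had Il1b at 2199 and 1733 CPM, against 3246 and 3550 CPM with exactly 3. Thbs1 was at 63.0 and 86.1 CPM with exactly 2 and at 238 and 255 CPM with exactly 3.

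The members carried MHC class II and macrophage genes together with classical monocyte genes at lower levels than in Vcan monocytes. They were compared with 3 other groups of the same 2 mice: 1051 Vcan monocytes, 1329 cells with Cd209a counts (dendritic cell-like by that gene) and 361 cells of the Mmp12 lipid-associated group. Csf1r, the receptor for macrophage colony-stimulating factor, was at 847 and 845 CPM in members and detected in 95.9% and 97.1% of them. Ly6c2, a surface protein of classical monocytes, was at 320 and 432 CPM in members against 1916 and 2230 CPM in Vcan monocytes. Plac8, also high in classical monocytes, was at 1832 and 2449 CPM against 6376 and 6934 CPM. The opposite held for H2-Aa, an MHC class II chain for antigen presentation, at 8688 and 8429 CPM in members, 942 and 703 CPM in Vcan monocytes and 13342 and 13348 CPM in Cd209a cells and 3732 and 3310 CPM in the Mmp12 group. Apoe, a lipid-transport protein of macrophages, was at 12552 and 12970 CPM in members, 3293 and 5223 CPM in Vcan monocytes and 20234 and 19983 CPM in the Mmp12 group. In both mice the members' Apoe thus lay between Vcan monocytes and the Mmp12 group, and their H2-Aa above both and below Cd209a cells.

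Summed marker lists were set side by side in the same groups. The 9 classical monocyte genes that the rule did not use summed to 14957 and 11120 CPM in members, against 39789 and 29908 CPM in Vcan monocytes and 15016 and 8866 CPM in the Mmp12 group. Lyz2, of which 1 copy carries Cre in the Lyz2Cre/+.Egr2fl/fl mouse, made up 10334 and 5296 CPM of the members' sums. Without Lyz2 the sums were 4623 and 5823 CPM in members, 16463 and 17274 CPM in Vcan monocytes and 1851 and 2409 CPM in the Mmp12 group, so that the order of the 2 mice turned. The gate itself removed cells with more than 1 Vcan-type gene. The 7 MHC class II genes summed to 42205 and 39841 CPM in members, against 5130 and 4086 CPM in Vcan monocytes, 18426 and 15741 CPM in the Mmp12 group and 64939 and 64184 CPM in Cd209a cells. The 12 macrophage genes summed to 17604 and 17572 CPM, against 5756 and 7830 CPM in Vcan monocytes and 29804 and 27679 CPM in the Mmp12 group. The 11 lipid-associated macrophage genes summed to 6774 and 5934 CPM, against 26496 and 25169 CPM in the Mmp12 group. Kupffer cell genes summed to 29.2 and 53.6 CPM, and Clec4f was listed above 0 in 0 and 1 members, where its lowest value above 0 in the data is 8 counts. The 11 dendritic cell genes other than Cd209a summed to 239 and 342 CPM, against 1176 and 1262 CPM in Cd209a cells, and 34 of 365 and 46 of 341 members had counts of 3 or more of them. Against the label of a transitional Ccr2 monocyte, macrophage genes, and classical monocyte genes other than Lyz2, lay between Vcan monocytes and the Mmp12 group, while MHC class II genes lay above both. Ly6c2 was detected in 38.6% and 49.9% of members. Where markers of dendritic cells were present, their part in the MHC class II level was not tested.

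**Figure D2:**
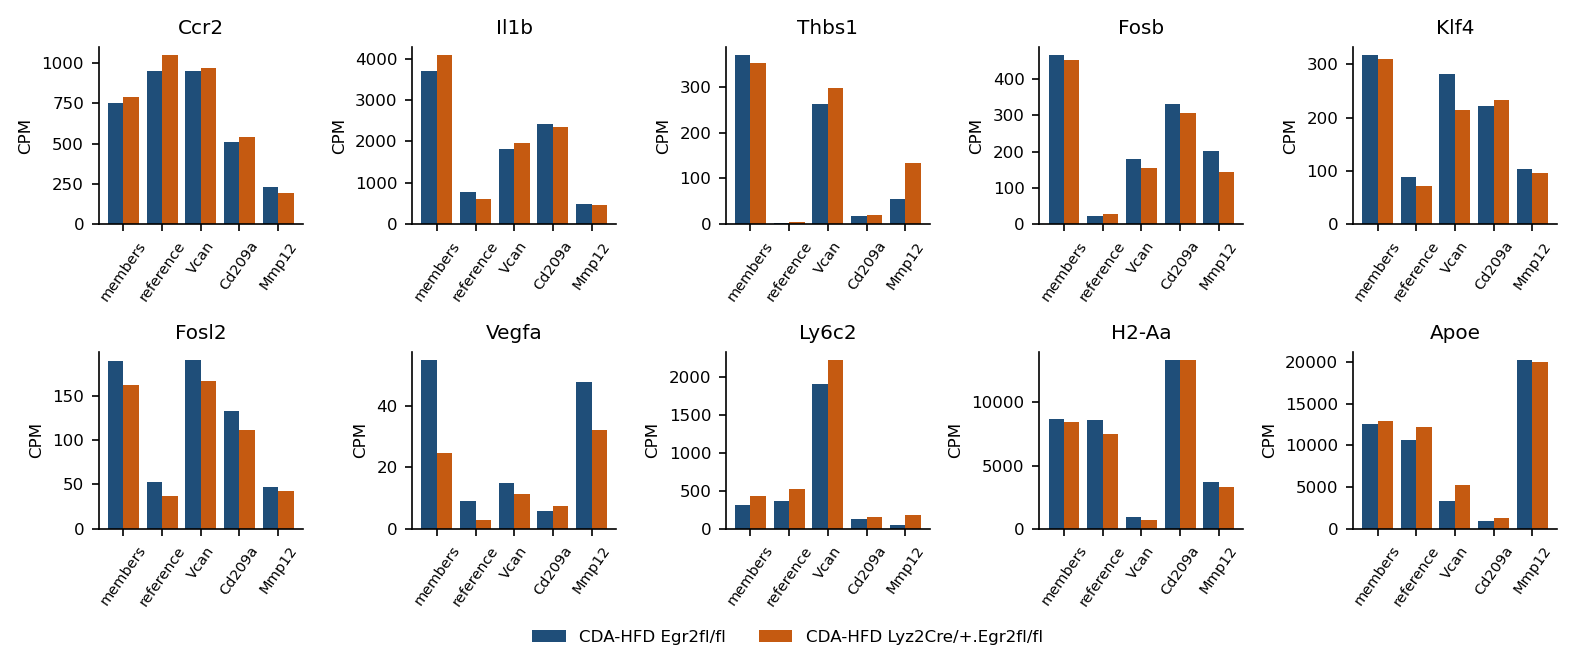
Summed expression in CPM (y axis, from 0) of 10 genes in members, reference cells, Vcan monocytes, Cd209a cells and the Mmp12 group, with 1 bar for each of the 2 CDA-HFD-fed mice. Members had Il1b at 3693 and 4075 CPM, above the other groups shown, but Il1b, Thbs1 and Fosb were genes that chose them. Their H2-Aa was close to that of reference cells and their Ly6c2 far below that of Vcan monocytes.

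The NR4A genes and Fosb are textbook CREB targets, and their promoters are shown because members were chosen on Nr4a2, Nr4a3 and Fosb while Nr4a1 was not used. Sequences are from RefSeq on GRCm38.p6, from 250 bases before to 50 after the start, 5′ to 3′ on the gene's strand, and 5 of the 6 genes looked up were found. Capitals mark the cyclic AMP response element half-site TGACG on either strand (its reverse complement is CGTCA). The windows are chr15:101266596-101266895 (plus strand) for Nr4a1, chr2:57123954-57124253 (minus) for Nr4a2, chr4:48045055-48045354 (plus) for Nr4a3 and chr7:19309996-19310295 (minus) for Fosb.
Nr4a1: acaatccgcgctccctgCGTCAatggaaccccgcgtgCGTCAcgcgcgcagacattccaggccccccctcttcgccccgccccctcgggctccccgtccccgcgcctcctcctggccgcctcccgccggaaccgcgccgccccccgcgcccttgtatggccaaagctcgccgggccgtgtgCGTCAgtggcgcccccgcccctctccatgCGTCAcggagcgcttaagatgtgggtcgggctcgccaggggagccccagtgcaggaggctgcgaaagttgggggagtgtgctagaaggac
Nr4a2: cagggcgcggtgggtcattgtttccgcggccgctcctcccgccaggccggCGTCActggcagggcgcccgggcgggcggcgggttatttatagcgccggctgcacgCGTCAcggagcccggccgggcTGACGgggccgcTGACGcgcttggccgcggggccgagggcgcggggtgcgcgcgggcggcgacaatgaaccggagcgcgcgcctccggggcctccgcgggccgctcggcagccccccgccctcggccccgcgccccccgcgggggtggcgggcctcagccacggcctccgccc
Nr4a3: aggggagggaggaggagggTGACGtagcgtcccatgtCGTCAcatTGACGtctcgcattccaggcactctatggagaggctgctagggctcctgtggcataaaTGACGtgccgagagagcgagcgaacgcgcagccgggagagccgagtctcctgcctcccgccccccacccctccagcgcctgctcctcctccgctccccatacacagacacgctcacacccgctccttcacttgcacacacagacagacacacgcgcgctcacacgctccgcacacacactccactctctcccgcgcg
Fosb: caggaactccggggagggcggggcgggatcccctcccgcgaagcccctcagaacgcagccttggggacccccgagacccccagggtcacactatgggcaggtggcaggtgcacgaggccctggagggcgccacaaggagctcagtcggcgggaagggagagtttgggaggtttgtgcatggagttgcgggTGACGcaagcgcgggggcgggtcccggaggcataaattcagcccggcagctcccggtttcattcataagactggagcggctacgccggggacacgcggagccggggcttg
Nr4a1, Nr4a2 and Nr4a3 each held 4 half-sites, Fosb held 1, and Il1b held none at chr2:129371090-129371389 (minus). Of all 32851 promoter windows of this length, 20.8% held at least 1 half-site and 0.231% at least 4. The full element TGACGTCA, which contains the half-site on both strands, was in none of the 5 windows and in 1.79% of all windows. The AP-1 motif TGANTCA was also in none of the 5, and in 7.81% of all windows. The EGR motif GCGNGGGCG was found 1 time each in Nr4a1, Nr4a2 and Fosb, and in 5.55% of all windows. The half-site search was added after the sequences had been seen, and a match is a description of letters, not of binding.

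Immediate early transcription factors that the rule did not use were mostly higher in members than in reference cells. Of 11176 genes with at least 50 counts over both groups, 1.78% had a ratio of 2 or more and 0.761% a ratio of 0.5 or less (pooled over both mice, with 1 CPM added to each value). Of the 19 immediate early factors tested, 14 had a ratio of 2 or more and 0 a ratio of 0.5 or less. Against gated cells with up to 2 of the 6 genes, 9 did. Their median log2 ratio was 1.31, against −0.05 over all genes, and was 1.09 in the Egr2fl/fl and 1.45 in the Lyz2Cre/+.Egr2fl/fl mouse. Fosl1 had too few counts. Since these genes come from the cells that the rule sorted by other immediate early genes, the count is a description of the members.

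Nr4a1, the remaining NR4A receptor, was at 420 CPM in members and 121 CPM in reference cells of the Egr2fl/fl mouse, a ratio of 3.48 (3.16 to 3.83). In the Lyz2Cre/+.Egr2fl/fl mouse it was at 413 and 69.4 CPM, a ratio of 5.95 (5.37 to 6.60). It was detected in 88.5% and 83.0% of members and in 40.8% and 34.1% of reference cells. Fosl2, another AP-1 subunit, was at 189 and 162 CPM in members against 53.3 and 37.4 CPM, and Klf4, a zinc finger factor of monocyte differentiation, at 316 and 310 CPM against 88.3 and 71.8 CPM. Atf3, a stress-induced member of the ATF family, had ratios of 2.14 and 2.73, and Btg2, an antiproliferative early response gene, ratios of 2.39 and 3.54. All of these were higher in members in both mice.

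The EGR factors were also higher in members than in reference cells. Egr2 was at 79.3 against 18.8 CPM in the Egr2fl/fl mouse, a ratio of 4.22 (3.32 to 5.43), and at 30.9 against 9.96 CPM in the Lyz2Cre/+.Egr2fl/fl mouse, a ratio of 3.10 (2.31 to 4.21). Egr1 had ratios of 1.95 and 5.18, and Egr3 of 3.57 and 6.05. Neither was particular to members. Egr1 was at 139 and 172 CPM in members and at 326 and 343 CPM in Cd209a cells. Egr3 was at 19.5 and 48.0 CPM in members and at 44.7 and 49.0 CPM in Cd209a cells. In the Lyz2Cre/+.Egr2fl/fl members, 1 cell held 14.9% of the Egr1 and 21.7% of the Egr3 counts. Their corepressors did not follow, with pooled log2 ratios of −0.14 for Nab1 and −0.07 for Nab2.

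The other 5 factors tested did not pass the fold. Jun, the partner of FOS in AP-1, had ratios of 1.42 and 1.40, whereas Fos passed narrowly, with 2.02 and 2.06. Ier2 had a pooled log2 ratio of 0.81, Ier5 of 0.52 and Klf6 of 0.99, each under the fold of 2. Myc was lower, at −0.48. The summed level of the immediate early list did not set members apart from Vcan monocytes: it was 7185 and 7307 CPM in members, 3477 and 2930 CPM in reference cells, and 7630 and 6731 CPM in Vcan monocytes. Cd209a cells had 6693 and 6559 CPM. Nr4a1 was higher in Vcan monocytes, at 611 and 550 CPM.

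**Figure D3:**
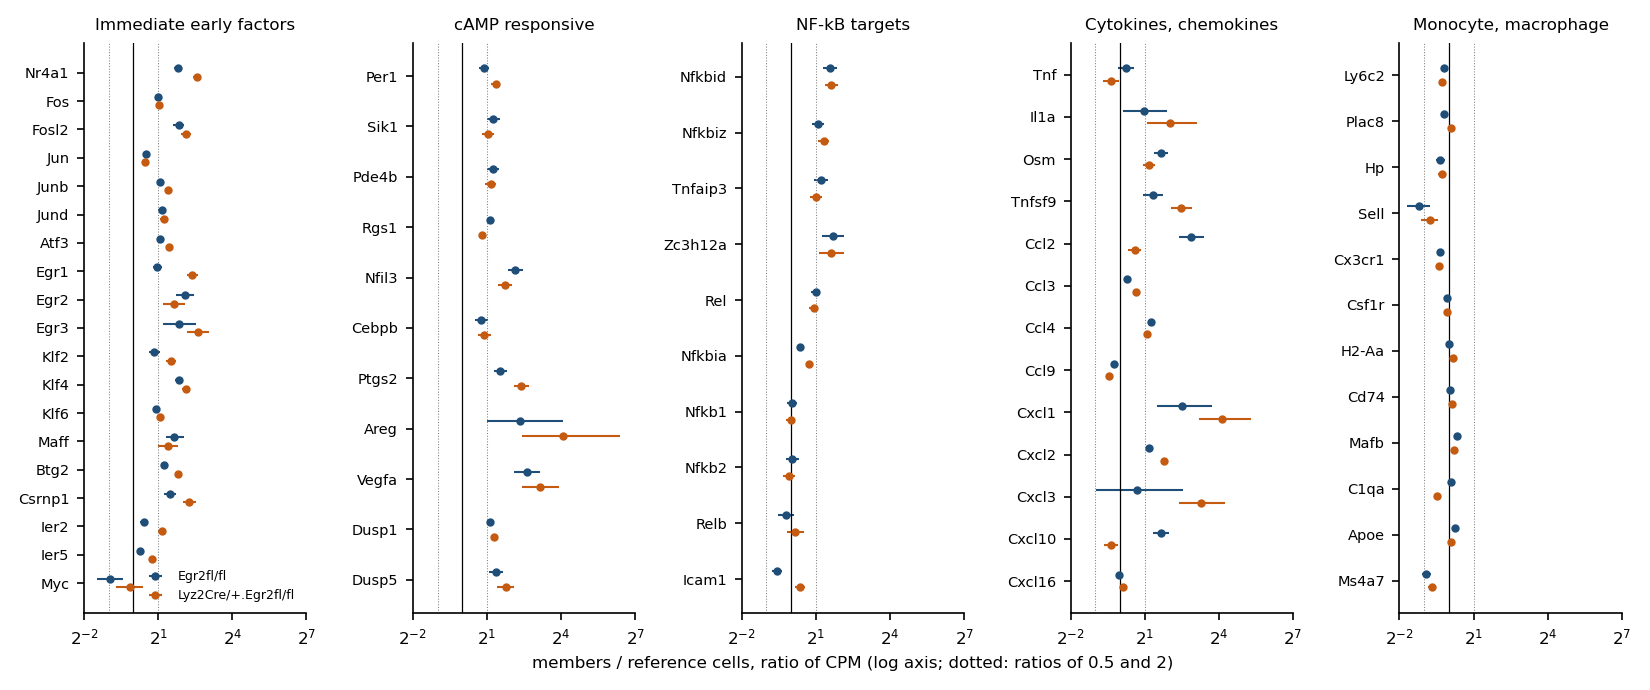
Ratio of CPM, members over reference cells (x axis, log scale), of the genes in 5 groups, with 95% counting intervals and 1 point for each CDA-HFD-fed mouse. Dotted lines mark ratios of 0.5 and 2. Of 19 immediate early factors, 14 were past 2 in the pooled values.

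Genes that cyclic AMP and CREB induce were higher as a group. Of the 15 tested, 11 had a ratio of 2 or more and 0 a ratio of 0.5 or less, with a median log2 ratio of 1.21 (Nr4a1 and Fosl2 stand in both lists). Against gated cells with up to 2 of the 6 genes, 7 did. Vegfa, the angiogenic growth factor, was at 54.8 against 9.04 CPM in the Egr2fl/fl mouse, a ratio of 6.06 (4.32 to 8.72), and at 24.6 against 2.80 CPM in the Lyz2Cre/+.Egr2fl/fl mouse, a ratio of 8.77 (5.34 to 15.3). Ptgs2, the inducible enzyme of prostaglandin synthesis, had ratios of 2.92 and 5.23, and Nfil3, a basic leucine zipper repressor, of 4.43 and 3.31. Negative regulators were among them: the cyclic AMP-degrading phosphodiesterase Pde4b had ratios of 2.37 and 2.23, the MAP kinase phosphatase Dusp1 2.16 and 2.43, and the salt-inducible kinase Sik1 2.39 and 2.07. Areg, an EGF receptor ligand, also passed the fold, but 1 cell held 60% and 85.7% of its counts in the 2 mice.

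Most NF-kB targets that the rule did not use stayed under the fold. Of the 18 tested, 4 had a ratio of 2 or more, still a larger share than the 1.78% of all genes. Their median log2 ratio was 0.15, and 2 passed against gated cells with up to 2 of the 6 genes. The 4 were Zc3h12a (pooled log2 ratio 1.67), which encodes an RNase that degrades cytokine transcripts, Nfkbid (1.59), Nfkbiz (1.19) and Tnfaip3 (1.05). Nfkbia, the main NF-kB inhibitor, had ratios of 1.28 and 1.65. The regulators of IL-1 were likewise mostly under the fold: 2 of 11 passed, Il1a (1.23) and the receptor antagonist Il1rn (1.01), again a larger share than over all genes. Il1rn was at 249 and 160 CPM in members against 129 and 84.1 CPM. Nlrp3, the inflammasome sensor, had ratios of 2.17 and 1.72, while Casp1, the protease that matures IL-1 beta, had 0.752 and 0.718.

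Among inflammatory cytokines and chemokines, 10 of 16 had a ratio of 2 or more, with a median log2 ratio of 1.25. Part of this count rested on few cells. The summed list was at 3220 and 3194 CPM in members and 2386 and 2356 CPM in reference cells. It was at 3303 and 3099 CPM in gated cells with exactly 2 of the genes, and higher over all cells, at 4132 and 3647 CPM. Cxcl2, a neutrophil-attracting chemokine, was at 488 and 539 CPM in members against 216 and 155 CPM in reference cells. Over all cells Cxcl2 was at 1062 and 686 CPM. Osm, which encodes oncostatin M, had ratios of 3.15 and 2.24, and the chemokine Ccl4 of 2.39 and 2.12. In contrast, 1 cell held 67.6% and 40.6% of the members' Cxcl1 counts, 35.7% and 68.2% of Ccl7, and 45.5% and 80.2% of Cxcl3. Tnf did not differ in 1 direction, with ratios of 1.18 and 0.777, and Ccl3 had 1.21 and 1.58. When each cell was thinned to 6000 counts, 6 of the cytokines passed the fold and 2 of the NF-kB targets. With members and reference cells chosen anew after thinning, 3 cytokines and 2 NF-kB targets did, and the cytokines' median log2 ratio was 0.27.

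Of the 15 growth, repair and matrix factors tested, 4 passed the fold, against 1.78% of all genes, with a median log2 ratio of 0.37. Besides Vegfa and Areg these were Plaur, the urokinase receptor, at 245 and 181 CPM against 72.3 and 52.1 CPM, and Hbegf, of which 1 cell held 37.2% and 60.0% of the members' counts. Tgfb1 had ratios of 1.28 and 1.27. Of 8 chemokine receptors tested, 2 had a ratio of 2 or more and 1 of 0.5 or less, with a median log2 ratio of 0.12. The atypical receptor Ccrl2 had ratios of 2.99 and 3.47. Ccr7, which guides cells to lymph nodes, had a pooled log2 ratio of 1.97, but 1 cell held 41.7% and 45.3% of the members' counts, and the ratio turned to −0.39 with cells thinned and chosen anew. Cxcr3, a receptor abundant on T cells, was lower, at −1.12. Cxcr4, which retains cells in tissue, had ratios of 1.74 and 2.12, under the fold when pooled.

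Outside the lists, the genes with the highest ratios were Grasp, Ifrd1, Ets2, Gm26532, Cd83 and Gm6377. Grasp, a scaffold protein, had a pooled log2 ratio of 2.51, Ifrd1, a transcriptional coregulator, 2.45, Ets2, an ETS-family factor, 2.30 and Cd83, an activation marker of antigen-presenting cells, 2.12. Cd83 was at 559 and 500 CPM in members against 130 and 115 CPM and was detected in 80.3% and 76.8% of members. The unnamed transcripts Gm26532 and Gm6377 had 2.23 and 2.02. At the other end, Txnip, a thioredoxin inhibitor that glucose induces, was at 137 and 193 CPM in members against 275 and 377 CPM, ratios of 0.497 and 0.511. Ddit4, an inhibitor of mTORC1, had ratios of 0.482 and 0.367. The histone gene H1f3 had 0.254 and 0.450, and Il16, a CD4 ligand, 0.530 and 0.447. Ms4a7, a macrophage membrane gene, had 0.533 and 0.614. The remaining lower genes of this rank were Zfp217, Arl11, Calhm2, Themis2, Tnfaip8l2, 9930111J21Rik2 and AC149090.1, with pooled log2 ratios from −1.08 to −0.77.

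Several other lists were read against the 1.78% of all genes with a ratio of 2 or more. Heat shock chaperones had 0 of 11 past the fold, with a median log2 ratio of 0.24. Interferon-stimulated genes had 0 of 12 higher and 1 lower (Ifit1, log2 ratio −1.05), with a median of −0.23. Of 12 hypoxia and glycolysis genes, only the lipid-droplet protein gene Hilpda passed, at 1.95. MHC class II (0 of 7), macrophage (0 of 12), lipid-associated macrophage (0 of 11) and classical monocyte genes (0 of 9) gave no gene past the fold in either direction, with medians of 0.11, −0.13, −0.07 and −0.22. Of the gene sets listed with the study for hepatic lipid-associated macrophages and monocyte-derived Kupffer cells, 7 of 79 and 10 of 476 genes had a ratio of 2 or more, or 8.86% and 2.10%, with medians of −0.03 each. The sets are named by the headings of their lists, whereas a figure legend of the study gives their sizes the other way round. The 7 were Plaur, Ccrl2, Pim1, Cdkn1a, Atf3, Gadd45b and Il1rn, with pooled log2 ratios from 1.82 to 1.01. Both groups of cells had been held to at most 1 gene of several marker lists, which limits how far such lists could differ.

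Some markers of other cell types were past the fold too. Of stellate cell and fibroblast genes, 3 of 3 tested had a ratio of 2 or more (Dcn, Lrat and Colec11), and 2 of 6 hepatocyte genes did (Alb and Fabp1). In the Lyz2Cre/+.Egr2fl/fl members 1 cell held 96.3% of the Dcn, 95.3% of the Lrat, 94.6% of the Colec11 and 86.5% of the Fabp1 counts. Alb had 160 counts in 1 cell, which is also its lowest value above 0 in the data, so lower Alb counts cannot be seen. Of 10 neutrophil markers, 5 had a ratio of 2 or more. Their sum was 691 and 2078 CPM in members and 599 and 537 CPM in reference cells, and 21 of 365 and 25 of 341 members had 3 or more of these markers, against 23 of 309 and 31 of 463 reference cells. Camp, Ly6g and Ngp were listed at 0 in members of the Egr2fl/fl mouse, but the deposited values hold no Camp count from 1 to 75 and no Ngp count from 1 to 98, so a 0 of these is no sign of absence. Over the lists of other cell types, with dendritic cell and non-classical monocyte genes not counted, 7.12% and 8.50% of members and 9.06% and 8.42% of reference cells had 3 or more markers of 1 list. Without those cells, 13 of the immediate early factors, 11 of the cyclic AMP genes and 10 of the cytokines passed the fold.

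The immediate early list, which shares no gene with the 6, was higher in cells with more of the 6 genes. In the Egr2fl/fl mouse, the summed immediate early list was at 2305, 3906, 6197, 7285, 7329 and 7420 CPM in gated cells with 0, 1, 2, 3, 4 and 5 of the genes. In the Lyz2Cre/+.Egr2fl/fl mouse it was at 1993, 3305, 5488, 6716, 7342 and 9059 CPM. In both mice the largest step lay between 1 and 2 genes, below the threshold of 3, so that members and cells with 2 genes were not separate by this measure. Cells with all 6 genes, at 5241 and 10391 CPM, were no more than 19 and 4. Depth moved with the number too, from a median of 12135 counts with 0 genes to 16028 with 5 in the Egr2fl/fl mouse. With cells thinned to 6000 counts and both groups chosen anew on the thinned counts, the list summed to 7984 and 8133 CPM in 247 and 241 members and to 4139 and 3267 CPM in 416 and 579 reference cells. This setting, chosen after seeing the data, left 13 immediate early factors and 11 cyclic AMP genes past the fold. MHC class II sums had no such order, at 35500, 43421, 41637 and 42898 CPM with 0, 1, 2 and 3 genes in the Egr2fl/fl mouse and 33394, 36347, 40435 and 37191 CPM in the Lyz2Cre/+.Egr2fl/fl mouse, though both were lowest with 0 genes.

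**Figure D4:**
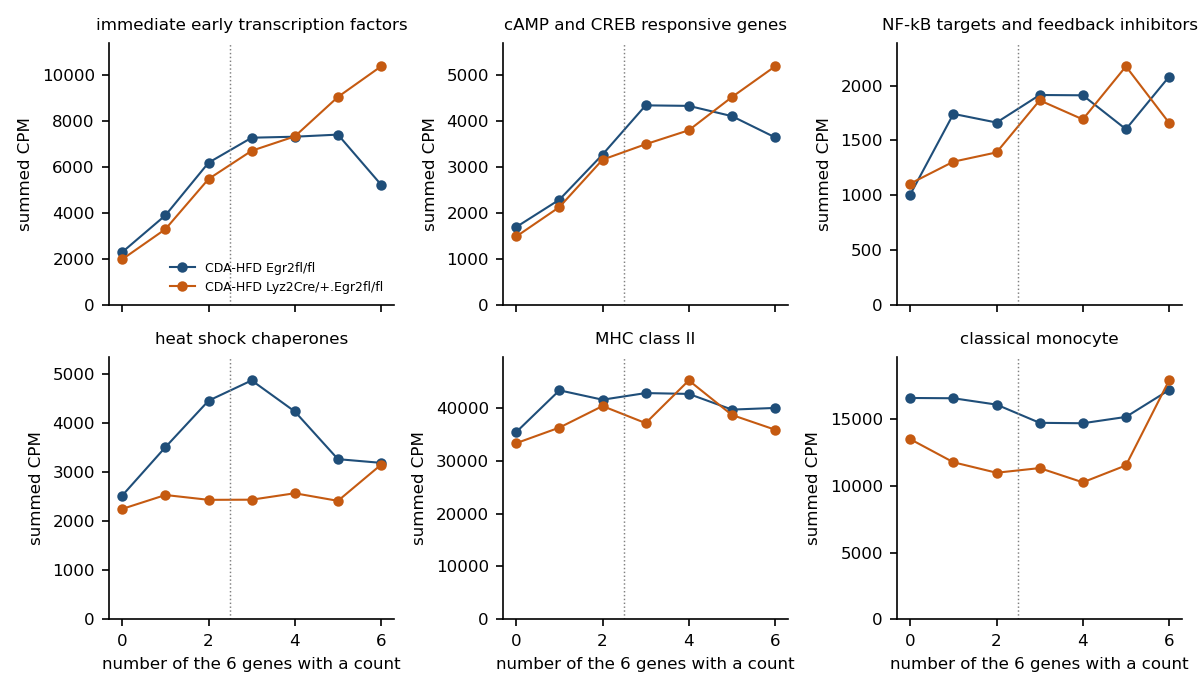
Summed expression in CPM (y axes) of 6 gene lists against the number of the 6 genes detected in a gated cell (x axis), with 1 line for each CDA-HFD-fed mouse. Points are sums over cells and carry no error; the dotted line at 2.5 marks where members begin. Immediate early genes were at 2305 and 1993 CPM at 0 genes and at 7285 and 6716 CPM at 3, whereas classical monocyte genes were at 16607 and 13511 CPM at 0 genes and at 14741 and 11342 CPM at 3 (6461 and 6238 against 4833 and 5868 CPM without Lyz2).

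Within members, Egr2 itself was lower in the Lyz2Cre/+.Egr2fl/fl mouse. It was at 79.3 CPM and detected in 31.5% of members of the Egr2fl/fl mouse, and at 30.9 CPM and detected in 14.7% in the Lyz2Cre/+.Egr2fl/fl mouse, a ratio of 0.389 (0.324 to 0.466). The ratio was 0.530 in reference cells and 0.369 over all cells of the 2 mice. Lyz2, of which 1 copy carries Cre, had a ratio of 0.513 in members and 0.533 over all cells. Of 9476 genes with at least 50 counts over the members, 2.10% had a ratio of 2 or more and 0.791% a ratio of 0.5 or less, Lyz2Cre/+.Egr2fl/fl over Egr2fl/fl. These ratios compare 2 mice, and genotype and animal cannot be told apart.

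Between the members of the 2 mice, few early response genes passed the fold. Of 19 immediate early factors, 1 was higher (Egr3) and 1 lower (Egr2), with a median log2 ratio of 0.06, against 0.03 over all genes. In reference cells the same median was −0.48 and over all cells −0.24. Nr4a1, which the rule did not use, had a ratio of 0.982 (0.927 to 1.04) in members. Members of both mice were chosen for counts of the 6 genes, so their ratios are a description: 0.973 for Fosb (0.921 to 1.03), 0.956 for Thbs1 (0.898 to 1.02), 1.10 for Il1b (1.08 to 1.12), 0.891 for Nr4a2 (0.811 to 0.979), 0.739 for Crem and 0.726 for Nr4a3. Maff, a small MAF factor, was lower, at 59.3 and 32.6 CPM, a ratio of 0.549. No gene of the 18 NF-kB targets passed the fold, and 1 of the 15 cyclic AMP genes did, Vegfa, with a ratio of 0.448 (0.363 to 0.551). The cyclic AMP genes had a median log2 ratio of −0.25, with 3 of 15 above 0, and the median was −0.21 in reference cells and −0.28 over all cells. Vegfa was also lower in reference cells (0.310) and over all cells (0.564). With cells thinned and chosen anew, its log2 ratio was −0.88, under the fold, and that of Egr3 turned to −0.48.

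Heat shock chaperones differed between the members of the mice. Of 10 tested, 5 had a ratio of 0.5 or less and 0 of 2 or more, with a median log2 ratio of −1.01. Hspa1a, the inducible HSP70, was at 976 CPM in members of the Egr2fl/fl and 219 CPM in those of the Lyz2Cre/+.Egr2fl/fl mouse, a ratio of 0.224 (0.210 to 0.239). Hspa1b, its near-identical paralog, was at 317 and 54.3 CPM, and reads of this pair may be shared between them. Bag3, an HSP70 co-chaperone, had a ratio of 0.251, the HSP90 gene Hsp90aa1 0.445 and the HSP40 gene Dnajb1 0.471. Constitutive Hspa8 was close to even, at 0.951. The lower Hspa1a was not particular to members: it was at 0.434 in reference cells and 0.292 over all cells, and 3 of the 10 chaperones were past the fold in each of these. As a list, the chaperones differed less in reference cells, with a median log2 ratio of −0.27 and 5 of 10 above 0. Over all cells the median was −0.75, with 0 of 10 above 0, as in members. Per cell, the chaperone sum had a median of 2951 CPM and a 90th percentile of 9462 CPM in members of the Egr2fl/fl mouse, against 2230 and 3896 CPM. The difference was thus widest in the upper part of the distribution.

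Other genes differed in smaller numbers. Fkbp5, a cochaperone that glucocorticoids induce, was at 19.2 and 42.4 CPM, a ratio of 2.21 (1.76 to 2.80), with 3.59 in reference cells and 2.53 over all cells. Fabp5, a fatty acid binding protein, had a ratio of 0.479 (0.428 to 0.536) in members, 0.954 in reference cells and 0.637 over all cells, and a log2 ratio of −0.55 in members with cells thinned and chosen anew. Tent5c, which encodes a poly(A) polymerase, had 0.428, F10, coagulation factor X, 0.501, and the unnamed transcript Gm12346 0.416. Il1rn was lower too, under the fold, with 0.642 in members and 0.755 over all cells. The higher genes of the rank were Klhl6, Ifi205, Rnf150, Gm45140, Ms4a7, Shtn1, Ppp1r15b and Slfn1, with log2 ratios of 0.82 to 1.02.

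Interferon-stimulated genes leaned higher in the Lyz2Cre/+.Egr2fl/fl members. Of 12, 2 had a ratio of 2 or more (Usp18, 2.42, and Ifit3, 2.37) and 0 of 0.5 or less, with a median log2 ratio of 0.44. The median was 0.75 in reference cells and 0.34 over all cells. Cxcl10 went the other way, at 83.8 and 31.5 CPM, but 1 cell held 31.1% of its counts in the Egr2fl/fl members. Marker lists gave 0 of 9 classical monocyte, 0 of 7 MHC class II and 0 of 12 macrophage genes past the fold, with medians of 0.41, −0.08 and −0.04.

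Genes of other cell types also differed between the members of the mice. S100a8, a calprotectin subunit abundant in neutrophils, was at 294 and 749 CPM, a ratio of 2.54, and 6 of 9 neutrophil markers were past the fold. In these members 1 cell held 21.6% and 38.3% of the S100a8 counts, and 40.6% and 47.8% of those of S100a9. The hepatocyte list summed to 16.9 and 104 CPM (with Alb seen only from 160 counts per cell), and the stellate cell list to 4.15 and 75.6 CPM, where 1 cell held 96.3% of the Dcn counts. T and NK cell markers summed to 239 and 43.4 CPM, and proliferation genes to 55.1 and 168 CPM. The part of such cells in the other genotype ratios was not tested. Without cells holding 3 or more markers of another type (dendritic cell and non-classical monocyte genes not counted), 5 chaperones were again at 0.5 or less, and the log2 ratio of S100a8 was 0.21.

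**Figure D5:**
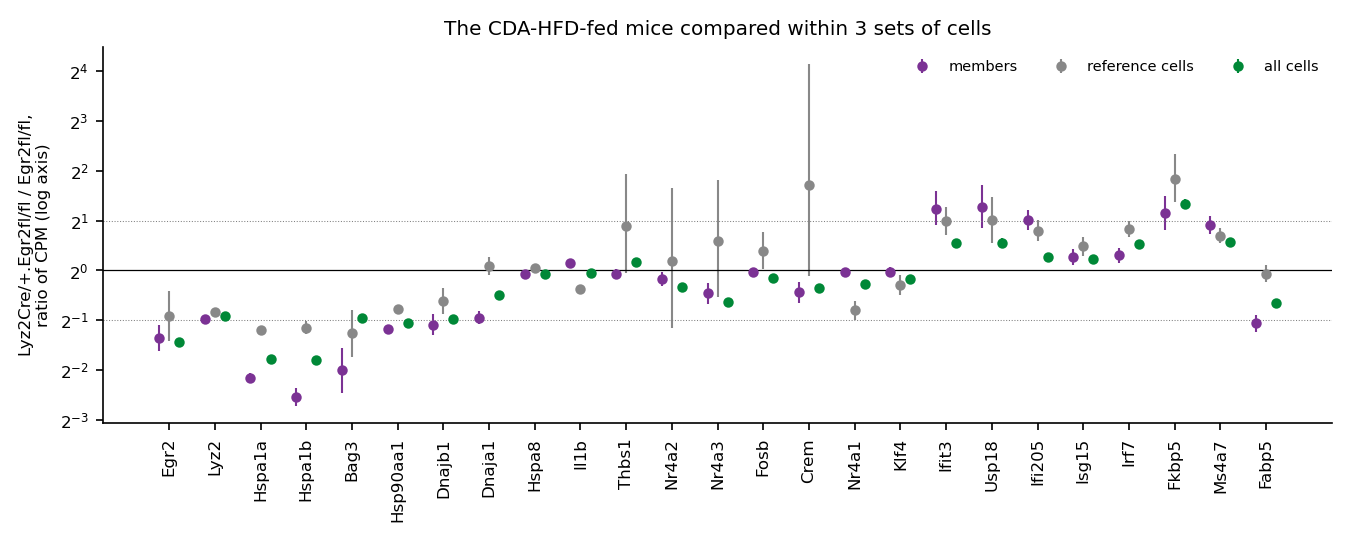
Ratio of CPM, Lyz2Cre/+.Egr2fl/fl over Egr2fl/fl mouse (y axis, log scale), of genes named in the text, in members, reference cells and all cells, with 95% counting intervals. Hspa1a and Hspa1b were lowest in members, at 0.224 and 0.172, and were below 0.5 in all 3 sets of cells.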

How the data were processed

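The scRNA-seq of pooled, hashtagged cells was made on the BD Rhapsody system with TAS-Seq amplification. The authors mapped reads to the GRCm38 reference transcriptome, assigned barcodes to mice by hashtag, named between-mouse doublets and deposited counts, in whole numbers, for each gene in each barcode. The submitters' processing notes name Seurat 4.1.1 and R 4.2.1. Whether reads or unique molecules were counted is not given in the sources used here. For 34 of 25909 genes no value from 1 to 4 occurs, 24 of them listed genes (H2-Aa from 8, Apoe from 18, C1qa from 7, Cxcl2 from 6, Mmp12 from 5, Cd5l from 7, Lyz2 from 11, S100a9 from 22, Camp from 76, Ngp from 99 and Alb from 160 counts). The deposited values of these genes are therefore not unaltered counts. Shares of cells with these genes, and their levels, may be understated where the missing low values were real. The deposited hashtag counts of the same barcodes gave each cell's share of its own hashtag. Bulk RNA-seq of the study was not analysed here.

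The members and gene lists were chosen with earlier results of these data known. Of 15394 cells named for a mouse, 10 with over 25% mitochondrial counts were left out. Total counts were 32029953 and 27840300 on ND and 85227192 and 90124521 on CDA-HFD, with 3115 to 86395 counts per cell, and no barcode was shared between mice. Shares have exact Clopper-Pearson intervals, and intervals of differences combine these exact bounds in the manner of Newcombe. Ratios are of summed CPM with exact binomial-split intervals. A gene counted as past the fold at 2 or more or 0.5 or less with 1 CPM added, among genes with at least 50 counts. Besides list genes, the 12 genes with the highest and lowest pooled ratio to reference cells and the 10 between genotypes were named, with at least 200 counts and detection in 20% of the cells of the higher group or of 1 mouse. The counting was checked on simulated data. Alternatives were other limits on mitochondrial counts, Ccr2 and gene number, each gene of the rule left out, no upper limits, cells with 90% of their own hashtag, thinning to 6000 counts (with the cells as chosen at full depth for gene ratios, and chosen anew on the thinned counts), edgeR 4.0.16 TMM scaling, means of per-cell CPM, other count filters, a fold of 1.5 and 10 CPM added. Python 3.11.15, numpy 2.4.6, scipy 1.17.1, pandas 2.3.3, matplotlib 3.10.9 and R 4.3.3 were used.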

Additional observations from a re-analysis of the deposited data

Results flagged for a closer look

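Of 291 list and ranked genes that the rule did not use, 24 had ratios of members to reference cells that pointed opposite ways in the CDA-HFD-fed Egr2fl/fl and Lyz2Cre/+.Egr2fl/fl mice, with an interval that left out 1 in each mouse. Of these, 9 belong to the 121 genes chosen for description and are given first. The difference between the mice was not tested. In each pair the Egr2fl/fl mouse is given before the Lyz2Cre/+.Egr2fl/fl mouse.

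For the heat shock chaperones the ratios were 1.17 and 0.602 (Hspa1a), 1.11 and 0.422 (Hspa1b), and 1.17 and 0.916 (Hspe1). The fatty acid binding protein gene Fabp5 had 1.52 and 0.764, and the complement gene C1qa 1.06 and 0.716. The interferon-induced chemokine gene Cxcl10 had 3.15 and 0.774, with 31.1% of its counts in 1 member of the Egr2fl/fl mouse, and the interferon regulatory factor gene Irf7 had 1.20 and 0.826. The opposite order was seen in the adhesion molecule gene Icam1 with 0.677 and 1.28, and in Plac8 with 0.865 and 1.06. The other 15 included Ccl5 with 1.22 and 0.339, Cd207 with 0.0656 and 2.13, Birc5 with 0.451 and 1.79, and Dcn with 0.242 and 16.9, in each of which 1 cell held over 15% of the members' counts in both mice.

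Of the barcodes that the authors named doublets, which no comparison used, 51 of 1387 with at most 25% mitochondrial counts (3.68%) met the gene conditions of the members. They were 32.5% of the 157 doublet barcodes that passed the gate.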

How the results depend on the processing

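Counting error is the only error measured, and 1 mouse per group limits every comparison of diets or genotypes. No paired analysis was possible because each group is 1 mouse. Of 48 genes of the text past the fold between members and reference cells, 21 were past it in every setting, and of 19 between genotypes, 3. The cause of the changes that follow was not tested beyond what each setting itself removes.

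The share of members moved with the rule, given for the Egr2fl/fl and then the Lyz2Cre/+.Egr2fl/fl mouse: 5.15% and 4.62% with a Ccr2 count of 5 or more, 10.3% and 10.3% with at least 2 of the 6 genes, 2.91% and 2.49% with at least 4, 6.87% and 6.23% in cells with 90% of their own hashtag, 5.29% and 4.68% after thinning, and 16.8% and 16.9% with no upper limits on other marker genes. Of gated cells it was 40.0% and 31%, with a difference of −8.98 points. Without Il1b in the rule it was 2.99% and 2.55%, without Thbs1 4.76% and 3.93%, without Nr4a2 4.93% and 4.45%, without Fosb 3.40% and 3.09%, without Nr4a3 5.57% in the Egr2fl/fl mouse, and without Crem 4.93% in the Lyz2Cre/+.Egr2fl/fl mouse. Without cells holding 3 or more markers of another cell type, a setting chosen after seeing the data, it was 7.58% and 6.47% of the cells left. Dendritic cell and non-classical monocyte genes were not counted as such markers. The direction of the difference of all cells turned in the settings of 2 genes and of no upper limits.

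Gene counts moved with the filters. Members against reference cells, 311 genes were higher and 183 lower with 1 count or more, 117 and 13 with 200, 541 and 576 at a fold of 1.5, and 73 and 4 with 10 CPM added. Against reference cells with up to 2 of the 6 genes 128 were higher, among them 9 immediate early, 7 cyclic AMP and 2 NF-kB genes. For members with at least 4 of the genes 228 were lower. Thinning with the same cells left 2 NF-kB genes, and 6 cytokines passed after thinning, with 200 counts and with 10 CPM added. With cells thinned and chosen anew, a setting chosen after seeing the data, 121 genes were higher, among them 2 NF-kB genes and 3 cytokines, and Ccl2 and Ccr7 turned to −0.077 and −0.39. Between genotypes, 74 genes were then higher, and Egr3 and Hspb1 turned to −0.48 and 0.88. In the other settings 790 genes were higher and 373 lower with 1 count or more, 36 and 16 with 200, 79 and 44 after thinning, 707 and 421 at a fold of 1.5, and 48 and 15 with 10 CPM added. Interferon genes past the fold numbered 1 with 90% of their own hashtag, 0 with 10 CPM added, and 4 at a fold of 1.5, with at least 4 of the 6 genes, or without cells holding other markers. Heat shock genes numbered 3 in members with at least 4 of the genes, where the genotype log2 ratios of S100a8 and S100a9 turned to −0.10 and −0.67. Without cells holding other markers, S100a8 turned to −0.084 against reference cells.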
